A study of Mus musculus with 30 samples.

Results

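The gastrocnemius, a calf muscle of the hind limb, was compared with the triceps brachii of the forelimb in the same mice 3 days after a transection of the spinal cord at the ninth thoracic segment (T9). All 11249 genes of the table were compared in the 8 libraries of the 4 male T9 mice in which both muscles were sequenced, out of 30 libraries in the series. The motor neurons of the triceps lie above this cut and those of the gastrocnemius below it. Sham-operated mice and mice with a transection at the third thoracic segment (T3), 4 of each, gave the same pair of muscles at the same day and serve as reference. T3 also leaves the triceps above and the gastrocnemius below the cut. All mice were male, and the labels name no transgene, no strain and no age. The 6 triceps libraries of mice with no gastrocnemius library were left out of the test, 2 of them T9.

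A complete transection removes the descending input to lumbar motor neurons, while their axons still reach the muscle. A muscle that loses nerve activity switches on genes that are silent outside the synapse in active fibres, among them the subunits of the acetylcholine receptor and the myogenic factors Myog and Myod1. Atrophy is known to go with ubiquitin ligases that mark muscle proteins for the proteasome, and inactivity with lower expression of genes of oxidative metabolism. The 2 muscles also differ without injury, in limb position and in fibre type. Many of the differences after T9 are therefore set beside those in sham mice. A difference given without its sham value may also be present without injury.

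The T9 libraries held 16.2 to 19.7 M reads in the gastrocnemius and 13.9 to 17.3 M in the triceps. Values are given in CPM (reads per 1000000 reads of the library) in T9 mice 1 to 4, and differences as gastrocnemius minus triceps on the log2 scale. The median gene stood higher in the gastrocnemius library of all 4 mice, by 0.416 on the log2 scale on average (exact sign-flip permutation test over 4 mice, two-sided p = 0.13, the smallest that 4 pairs allow). Reads from mitochondrially encoded genes were 7.66 to 9.27% of the gastrocnemius libraries and 14.9 to 17.5% of those of the triceps, which do not overlap (p = 0.13 by the same exact permutation test). Because of this shift, counts are also given after each library was centred on its median.

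Of 11249 genes, 5959 (53%) had an adjusted p under 0.05 (limma, mouse as a block, Benjamini-Hochberg over all genes), 4713 (41.9%) higher and 1246 (11.1%) lower in the gastrocnemius. At least 2-fold differences numbered 1889 (16.8%) higher and 461 (4.1%) lower. The T9 libraries of the 2 muscles did not overlap for 6124 genes (54.4%). A lack of overlap given below for a single gene is therefore common. After median centring the 2 directions were nearly even, with 2432 (21.6%) higher and 2722 (24.2%) lower. Counts for gene lists below are to be read beside these shares of higher and lower genes. Leaving out 1 T9 mouse at a time gave 3504 to 5378 calls, the fewest without mouse 1 (3504) and mouse 4 (3960). In bulk muscle, fewer cells of a type and less RNA per cell cannot be told apart.

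The same fit called 4374 genes (38.9%) in sham mice and 3423 (30.4%) after T3. T9 mice are named by replicate number, T3 mice by the replicate number of their triceps library (the gastrocnemius numbers differ for 2 of them), and sham mice by the number in the labels (1, 2, 4 and 5). The sham count rested on mouse 4, whose 2 libraries did not deviate together from their group means (r = -0.638): without it 96 genes were called, and without the block 95. Sham differences are therefore given below as values and not as calls. T3 calls fell to 592 without T3 mouse 4 and to 788 without T3 mouse 3. Across all 11249 genes the T9 difference had a Pearson r of 0.63 with the sham difference (0.54 without sham mouse 4) and of 0.89 with the T3 difference. These are correlations across genes, which are not independent replicates, and the libraries of the 3 groups are separate. The difference itself differed between T9 and sham mice for 782 genes (6.95%), 423 (3.76%) toward the gastrocnemius and 359 (3.19%) toward the triceps. The balance turned with the settings: 364 and 560 after median centring, 700 and 933 with length and GC trends removed, and 1041 and 447 without sham mouse 4. The total was 1488 without sham mouse 4, 447 without the block, 430 without sham mice 4 and 5, and 353 to 412 without T9 mouse 2, 3 or 4.

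**Figure D1:**
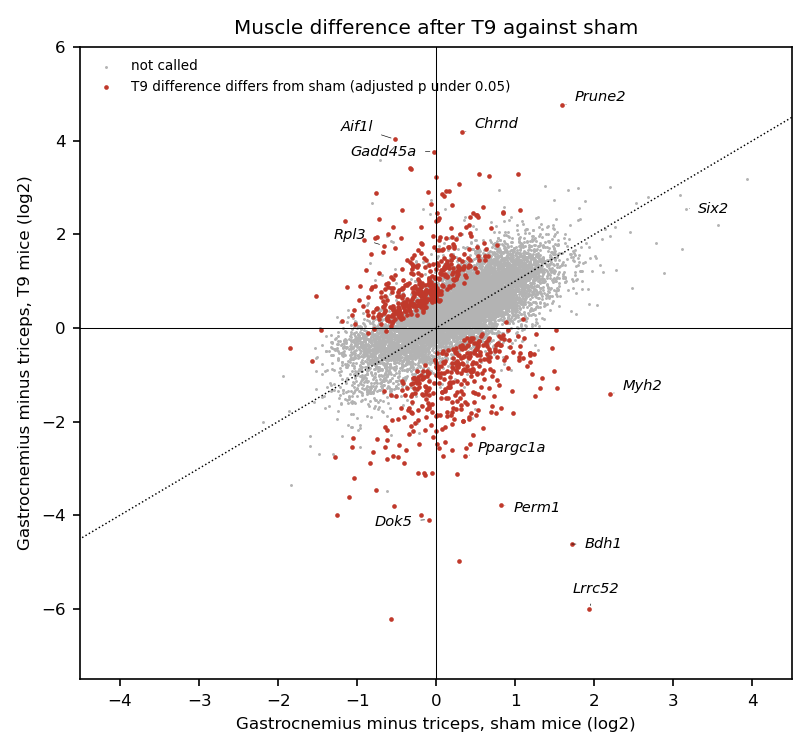
Gastrocnemius minus triceps difference of each gene in T9 mice (vertical axis, log2) against the same in sham mice (horizontal axis, log2), 4 mice each. Red points are the 782 genes whose difference after T9 differs from that in sham mice at an adjusted p under 0.05, grey points the rest, and the dotted line marks equal values. Chrnd and Gadd45a lie near 0 in sham mice and far above it after T9, Bdh1 and Myh2 change sides, and Six2 lies near the line.

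Of 22 limb patterning genes 9 were higher and none lower after T9, beside 41.9% and 11.1% of all genes. After centring 6 were higher and 6 lower, beside 21.6% and 24.2%. Their median was 0.39 after T9 and 0.05 in sham. Six2, a homeobox transcription factor, stood at 22.1, 20.99, 17.6 and 18.7 CPM in the gastrocnemius of mice 1 to 4 and at 1.79, 6.46, 3.6 and 3.02 CPM in the triceps. The groups did not overlap, and the same held for 54.4% of all genes. The difference was 2.55 ± 0.29 (SE, adjusted p = 7.4e-05) after T9 and 3.15 in sham mice. Hoxd9 and En1, 2 patterning factors, were 1.48 and 1.81 higher after T9 and 1.34 and 1.89 in sham. Tbx4, the T-box factor of the hind limb, was at 3.9 to 5.49 CPM against 1.33 to 2.94 CPM, a difference of 1.2 ± 0.33 (SE, adjusted p = 0.0093) that was lost without mouse 1 (adjusted p = 0.06) and with length and GC trends removed (0.065). Its sham difference was 0.57. No gene of the forelimb identity list was among the 11249.

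Of 8 Schwann cell markers in the table, 7 were higher in the gastrocnemius and none lower, against 41.9% and 11.1% of all genes. Their median difference was 1.9 after T9 and 1.89 in sham mice (1.36 without sham mouse 4). The summed level of the markers was 178 to 233 CPM in the gastrocnemius and 34.5 to 56.6 CPM in the triceps. How far nerve tissue in the samples bears on the genes of the synapse described next was not tested.

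Of 11 macrophage markers 4 were higher after T9, beside 41.9% of all genes. The count was 1 after median centring, beside 21.6%, and 1 without T9 mouse 1, 3 or 4. Their summed level was 51.0 to 73.1 CPM in the gastrocnemius and 24.7 to 72.0 CPM in the triceps, which overlap. Of 15 endothelial markers 6 were higher, beside 41.9% of all genes, and 1 without T9 mouse 1 or 4. After centring 2 were higher and 2 lower. The median before centring was 0.74 after T9 and 0.95 in all sham mice. Vwf, a clotting protein of endothelium, was among the 6 higher markers (1.54 ± 0.46 SE, adjusted p = 0.014), with an adjusted p of 0.09 without mouse 1. None of the 10 neutrophil and 12 T, B and NK cell markers was in the table. Scx, the transcription factor that marks tendon cells, stood at 43.8, 36.4, 43.3 and 54.4 CPM in the gastrocnemius and 11.98, 6.46, 8.05 and 15.1 CPM in the triceps. The muscles did not overlap, with a difference of 2.15 ± 0.23 (SE, adjusted p = 5.2e-05). In sham mice the difference was -0.54, and the 2 differences differed (2.7 ± 0.33 SE, adjusted p = 6.3e-04). Scx was the 1 of 4 tendon markers in the table for which this was called, and the list had medians of 0.75 after T9 and 0.61 in sham. Adipocyte markers summed to 3236 to 4408 CPM in the gastrocnemius and 1682 to 2336 CPM in the triceps, and smooth muscle and pericyte markers to 551 to 658 CPM and 396 to 505 CPM. Neither pair of ranges overlapped. Gene by gene, 2 of 12 adipocyte markers were higher and 1 lower (1 and 1 after centring), with a median of 0.51 beside 0.40 for all genes. Among 10 smooth muscle and pericyte markers 5 were higher and 1 lower (3 and 2 after centring). For both lists the shares of all genes were 41.9% and 11.1%, and 21.6% and 24.2% after centring. The part of these cells in the results below was not tested. The 12 markers of skeletal muscle fibres summed to 133944 to 155215 CPM in the gastrocnemius and 93627 to 123071 CPM in the triceps so the defining markers of the labelled tissue were present in both.

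Of the 46 gene lists with members in the table, genes switched on by loss of nerve activity had the largest median difference after T9. Of 24 such genes in the table, 18 were higher in the gastrocnemius, 3 lower and 3 not called, beside 41.9% higher and 11.1% lower of all genes. Their median was 2.47 against 0.40 for all genes. After median centring 16 were higher and 3 lower, and 15 to 17 were higher without any 1 T9 mouse. In sham mice the median was 0.11 (-0.23 without sham mouse 4). The difference from sham was called for 8 genes upward and 1 downward, beside 3.76% and 3.19% of all genes. After centring these counts were 13 and 1, beside 364 and 560 of all 11249 genes. Without sham mouse 4 they were 14 and 1, beside 1041 and 447 of all 11249 genes. Chrna1, Chrnb1, Chrnd and Musk are also in the list of postsynaptic genes.

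Promoter windows of 3 of these genes are shown because they hold the E-box, the site that Myog and Myod1 are known to bind. Each runs from 250 bases before to 50 after the start of the gene (RefSeq, GRCm38.p6). Capitals mark every match to CANNTG on either strand, of which CAGCTG is one form. The windows lie at chr2:73580289-73580588 (minus strand), chr4:58285712-58286011 (plus strand) and chr1:134289754-134290053 (plus strand).
Chrna1: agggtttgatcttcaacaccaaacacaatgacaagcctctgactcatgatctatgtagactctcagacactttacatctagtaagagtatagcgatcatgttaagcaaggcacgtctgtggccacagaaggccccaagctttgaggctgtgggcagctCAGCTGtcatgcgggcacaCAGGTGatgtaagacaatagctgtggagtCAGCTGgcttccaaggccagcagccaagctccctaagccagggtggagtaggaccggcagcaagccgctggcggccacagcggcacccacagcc
Musk: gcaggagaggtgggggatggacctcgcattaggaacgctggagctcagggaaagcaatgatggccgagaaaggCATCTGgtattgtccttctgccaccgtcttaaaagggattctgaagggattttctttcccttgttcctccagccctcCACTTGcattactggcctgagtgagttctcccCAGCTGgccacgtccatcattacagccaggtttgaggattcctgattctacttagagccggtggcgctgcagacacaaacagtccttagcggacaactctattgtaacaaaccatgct
Myog: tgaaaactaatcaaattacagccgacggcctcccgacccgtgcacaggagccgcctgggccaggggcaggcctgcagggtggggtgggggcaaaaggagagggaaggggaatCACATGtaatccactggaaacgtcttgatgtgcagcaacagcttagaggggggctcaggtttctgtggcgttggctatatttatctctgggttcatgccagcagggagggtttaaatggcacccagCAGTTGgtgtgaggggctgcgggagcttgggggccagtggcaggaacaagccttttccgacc
The Chrna1 window holds 3 matches, 2 of them CAGCTG, that of Musk 3 with 1 CAGCTG, and that of Myog 2 with none. CANNTG is common: 72.3% of 32851 windows hold it, and 18 of the 20 denervation genes with a window. A gene was counted if at least 1 of its windows held a match. CAGCTG was in 16.3% of all windows, in 6 of 20 denervation genes and in 6 of 13 postsynaptic genes. A match describes the letters and not binding.

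Chrna1 encodes the α subunit of the acetylcholine receptor. It stood at 130.2, 70.4, 95.6 and 162 CPM in the gastrocnemius of mice 1 to 4 and at 9.43, 13.6, 13.5 and 24.02 CPM in the triceps. All gastrocnemius libraries were above all triceps libraries, with a difference of 2.93 ± 0.50 (SE, adjusted p = 8.4e-04). In sham mice the levels were 11.2 ± 3.2 and 14.3 ± 15.03 CPM (SD, n = 4), a difference of 0.12. Chrnd, the δ subunit (chromosome 1, 87190607 to 87200070), had 53.5, 25.8, 42.5 and 64.04 CPM against 1.16, 2.43, 1.94 and 6.09 CPM. It differed by 4.17 ± 0.60 (SE, adjusted p = 2.8e-04), and the difference from sham was 3.85 ± 0.84 (SE, adjusted p = 0.016), a call lost without T9 mouse 3 or sham mouse 5. Chrnb1, the β subunit, was 2.19 ± 0.36 (SE, adjusted p = 6.2e-04) higher. Chrne, the ε subunit of the adult synapse, was at 11.7 to 16.4 CPM and 5.32 to 12.2 CPM and was not called (0.63 ± 0.25 SE, adjusted p = 0.051).

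Musk, the kinase that gathers receptors at the synapse, stood at 62.9, 86.3, 117 and 91.1 CPM against 9.37, 17.02, 18.3 and 16.1 CPM. Their ranges did not meet (2.56 ± 0.31 SE, adjusted p = 1.1e-04). Sham mice had a difference in the same direction (1.8), and the test of T9 against sham did not call it (adjusted p = 0.35). Of 18 postsynaptic genes 10 were higher and 1 lower, beside 41.9% and 11.1% of all genes. Their median was 0.80 after T9 and 0.81 in sham (0.44 without sham mouse 4). The difference from sham was called upward for 2, beside 3.76% of all genes, and for 5 without sham mouse 4, beside 1041 of all 11249 genes. After length and GC trends were removed 5 were higher and 2 lower, beside 22.7% and 21.9% of all genes. Rapsn, which anchors the receptor, differed by 0.64 ± 0.11 (SE, adjusted p = 8.9e-04), a call that ended after centring (adjusted p = 0.15). Lrp4 and Agrn, the receptor and the nerve-derived signal upstream of Musk, were 1.47 and 1.26 higher, and neither call held after length and GC trends were removed (adjusted p = 0.17 and 0.55). Ache, which breaks down acetylcholine, was not called (0.28 ± 0.33 SE, adjusted p = 0.48).

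**Figure D2:**
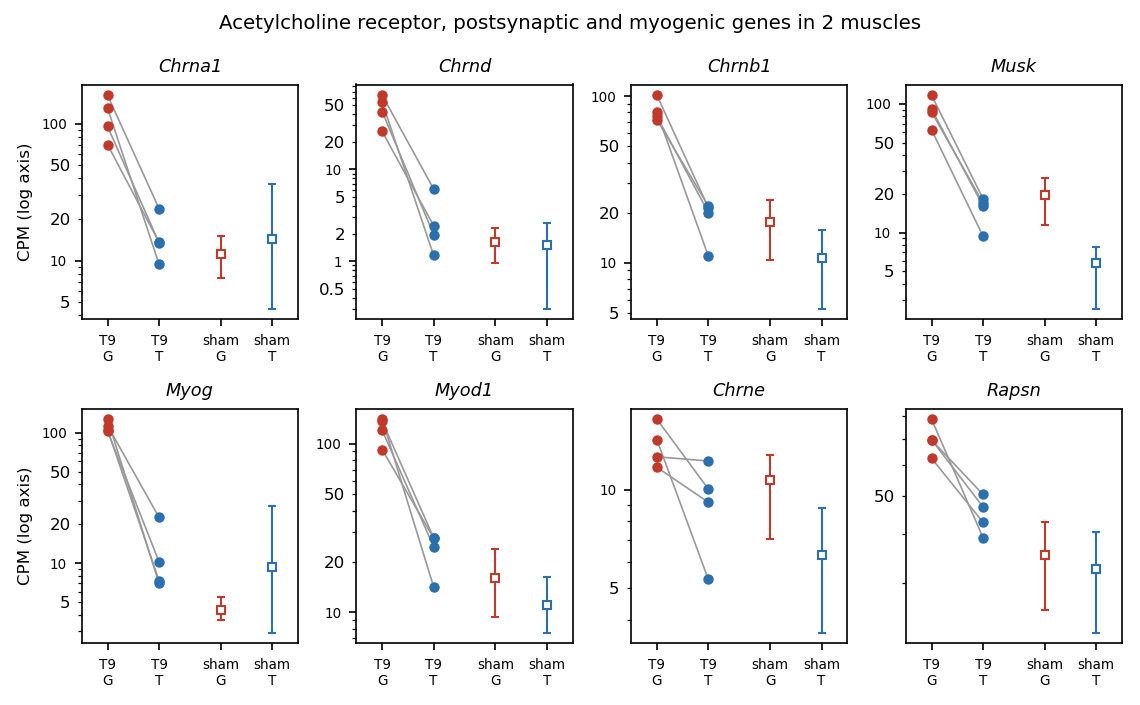
CPM (log axis) of 8 genes in the gastrocnemius (G, red) and triceps (T, blue). Filled points are the 4 T9 mice with lines joining the muscles of a mouse, and open squares are sham means with bars from the lowest to the highest of 4 mice. The genes Chrna1, Chrnd, Chrnb1, Musk, Myog and Myod1 show T9 gastrocnemius points far above those of the triceps, whereas Chrne overlaps.

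Myog, the myogenic factor that follows loss of activity, stood at 127, 102, 105 and 113 CPM in the gastrocnemius and 7.0, 10.2, 7.34 and 22.4 CPM in the triceps. All gastrocnemius libraries were far above all triceps libraries. The difference was 3.42 ± 0.62 (SE, adjusted p = 0.0012) after T9 and -0.33 in sham mice. Myod1 was also higher in the gastrocnemius after T9, at 92.3 to 139.8 CPM against 14.1 to 27.6 CPM (2.41 ± 0.28 SE, adjusted p = 7.9e-05). Hdac4, a deacetylase that links activity to Myog, stood at 194, 172, 199 and 171 CPM against 13.5, 21.5, 21.4 and 19.7 CPM. Its groups did not overlap (3.29 ± 0.35 SE, adjusted p = 4.7e-05), and the difference exceeded that of sham by 2.26 ± 0.49 (SE, adjusted p = 0.016). Satellite cells, the stem cells of muscle, also express myogenic factors. Of 8 of their markers 5 were higher and none lower, beside 41.9% and 11.1% of all genes (3 and 1 after centring, beside 21.6% and 24.2%). The summed level of these markers was 268 to 310.2 CPM in the gastrocnemius and 91.3 to 183 CPM in the triceps. The part of these cells in the result was not tested.

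Gadd45a, a stress-induced nuclear protein that promotes atrophy after denervation in mice, reached 253, 261, 272 and 280.1 CPM in the gastrocnemius. In the triceps it was at 13.2, 17.98, 13.6 and 45.4 CPM. The difference was 3.76 ± 0.51 (SE, adjusted p = 2.0e-04), against -0.03 in sham mice. Ncam1, an adhesion molecule that spreads over inactive fibres, differed by 2.54 ± 0.51 (SE, adjusted p = 0.0019). Ampd3, an AMP deaminase, differed by 2.96 ± 0.49 (SE, adjusted p = 7.0e-04). Rrad, a small GTPase, had the wide range of 71.6 to 272 CPM against 5.61 to 14.4 CPM (3.59 ± 0.90 SE, adjusted p = 0.0063). Ankrd1 was called (2.53 ± 0.99 SE, adjusted p = 0.045) but not after centring (adjusted p = 0.075). Myh3, embryonic myosin, was not called, with 7.05 to 71.4 CPM in the gastrocnemius and 1.97 to 5.8 CPM in the triceps.

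The 3 members of the denervation list that were lower were Dach2, Stmn2 and Hdac9. Dach2 and Hdac9 are repressors that keep synaptic genes silent in active mouse muscle and are known to fall on denervation, so the name of the list does not describe them. Dach2 stood at 0.303, 0.587, 0.457 and 0.185 CPM in the gastrocnemius and 5.73, 3.33, 4.67 and 5.28 CPM in the triceps. All 4 mice showed the same order without overlap (-3.62 ± 0.37 SE, adjusted p = 4.0e-05), and the sham difference was -1.1. Hdac9 differed by -0.98 ± 0.29 (SE, adjusted p = 0.014), with an adjusted p of 0.058 without the block and 0.069 without mouse 3. Dok5, an adaptor of receptor tyrosine kinases, was the 1 postsynaptic member that was lower, at 0.121, 0.214, 0.102 and 0.123 CPM against 1.97, 3.84, 2.8 and 2.73 CPM. Its groups were far apart, with a difference of -4.09 ± 0.28 (SE, adjusted p = 2.8e-06) after T9 and -0.09 in sham. With so few Dok5 reads in the gastrocnemius, the size of the difference depends in part on the offset of 0.5 reads.

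Prune2 (chromosome 19, 16956118 to 17223932) had the largest positive difference among named genes, 4.75 ± 0.61 (SE, adjusted p = 1.5e-04). It stood at 24.5, 28.5, 49.8 and 38.9 CPM in the gastrocnemius and 1.1, 0.896, 0.791 and 2.96 CPM in the triceps, with no overlap. Aif1l, an actin-binding protein, differed by 4.03 ± 0.70 (SE, adjusted p = 9.0e-04), at 22.4 to 84.3 CPM against 1.51 to 11.5 CPM. Its difference in sham mice was -0.52. Lpin2, a phosphatidate phosphatase, and Cpne2, a calcium-binding copine, were 3.21 and 3.08 higher, with 0.00 and 0.29 in sham. Sik1, a kinase induced by cAMP and depolarization, was 3.28 higher. Nfkb2, a subunit of NF-κB, stood at 68.1, 77.6, 91.8 and 115 CPM against 3.76, 10.1, 11.8 and 15.3 CPM. The groups did not overlap (3.24 ± 0.39 SE, adjusted p = 1.1e-04). Myl4, an embryonic myosin light chain, was 2.29 ± 0.49 (SE, adjusted p = 0.0026) higher after T9 and -1.15 in sham mice.

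Of 18 p53-linked genes, 13 were higher and 4 lower in the gastrocnemius, beside 41.9% and 11.1% of all genes, with a median of 0.87. After centring 9 were higher and 4 lower, beside 21.6% and 24.2%. Cdkn1a, the cell cycle inhibitor p21, stood at 264, 216, 234 and 322 CPM against 11.5, 21.4, 21.4 and 67.8 CPM. All gastrocnemius libraries were higher, by 3.38 ± 0.44 (SE, adjusted p = 1.7e-04), and the difference exceeded that of sham by 3.7 ± 0.63 (SE, adjusted p = 0.0044). Eda2r, a receptor of the TNF family, stood at 96.5 to 176 CPM against 10.7 to 33.8 CPM. It differed by 2.89 ± 0.39 (SE, adjusted p = 1.9e-04) after T9 and -0.76 in sham. Gadd45b, a relative of Gadd45a, went the other way (-1.59 ± 0.19 SE, adjusted p = 9.3e-05).

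Of 30 ubiquitin ligases and atrogenes, genes of protein breakdown, 23 were higher and 1 lower, beside 41.9% and 11.1% of all genes, with a median of 0.95. After centring 16 were higher and 3 lower, beside 21.6% and 24.2%. With length and GC trends removed 14 were higher and 5 lower, beside 22.7% and 21.9%. Sham mice had a median of 0.65 (0.43 without sham mouse 4). The difference from sham was called for 2 members, Fbxo32 (2.0) and Trim63 (1.9), beside 6.95% of all genes. Without sham mouse 4 it was called for 7 members, beside 1041 upward and 447 downward among all 11249 genes. Fbxo32, the ligase atrogin-1, stood at 642, 1133, 1421 and 1313 CPM in the gastrocnemius and 91.7, 167, 291 and 234 CPM in the triceps. No overlap was seen between the groups (2.59 ± 0.30 SE, adjusted p = 8.4e-05). Trim63, the ligase MuRF1, stood at 548, 697, 954 and 1099 CPM against 174, 204, 309 and 360.4 CPM. The muscles did not overlap, and the difference was 1.66 ± 0.17 (SE, adjusted p = 4.5e-05) after T9, -0.24 in sham and 0.39 after T3. The test of the T9 difference against the T3 difference did not call Trim63. After T3 the triceps level of Trim63 was 1494 ± 864 CPM (SD, n = 4), against 262 ± 87.4 CPM after T9.

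Of 32 proteasome subunits 17 were higher and none lower, 8 and none after centring, with a median of 0.38, close to that of all genes. The higher shares over all genes were 41.9% and 21.6% in the same fits. In sham mice the median was -0.16. For 12 subunits the difference rose from sham to T9, beside 3.76% of all genes, and for none did it fall. That count was 4 after centring and 6 without the block or without sham mice 4 and 5. Psmd1, a subunit of the regulatory cap, differed by 1.19 ± 0.12 (SE, adjusted p = 3.2e-05). Of 31 autophagy and lysosome genes 18 were higher and none lower, but 11 and 4 after centring. Ctsl, the lysosomal protease cathepsin L, stood at 430.5, 424, 381 and 373 CPM against 87.4, 101, 92.1 and 139.8 CPM. Their ranges did not meet (1.96 ± 0.22 SE, adjusted p = 5.5e-05), with a sham difference of -0.04. Sqstm1, the autophagy receptor p62, differed by 1.69 ± 0.18 (SE, adjusted p = 5.3e-05).

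**Figure D3:**
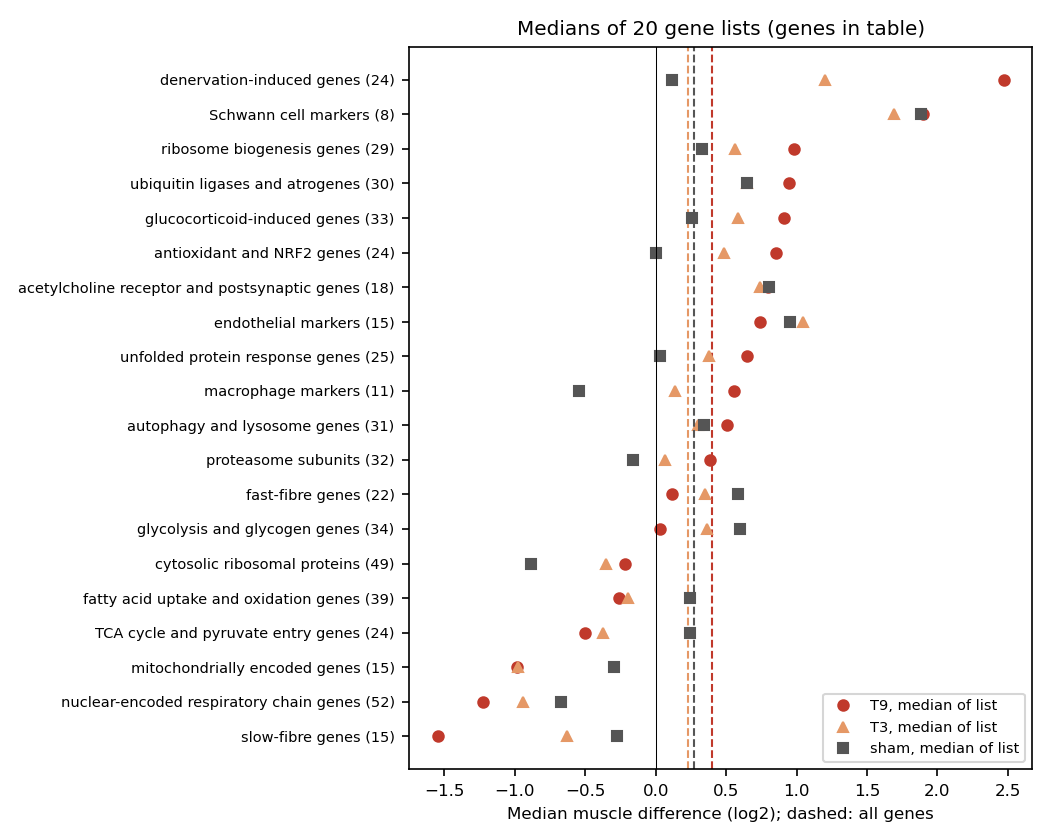
Median gastrocnemius minus triceps difference (log2) of 20 gene lists in T9 (red circles), T3 (orange triangles) and sham mice (grey squares), with the number of genes in the table in brackets. Dashed lines are medians of all 11249 genes in the same colours. Denervation genes stand at 2.47 after T9 and 0.11 in sham, and Schwann cell markers have like medians in both. After T9, slow-fibre and respiratory chain genes stand farthest to the left.

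Of 33 genes induced by glucocorticoids, the adrenal stress hormones, 22 were higher and 2 lower, beside 41.9% and 11.1% of all genes. After centring 18 were higher and 4 lower, beside 21.6% and 24.2%. The median of the list was 0.91 after T9 and 0.26 in sham (0.11 without sham mouse 4). The list shares Fbxo32, Trim63 and Cdkn1a with the lists above. Tsc22d3, the glucocorticoid-induced leucine zipper, stood at 343 to 425 CPM against 142 to 240.1 CPM (0.97 ± 0.12 SE, adjusted p = 1.4e-04). Dusp1, a phosphatase of MAP kinases, went the other way, at 13.2, 12.9, 10.2 and 9.24 CPM in the gastrocnemius and 45.5, 59.2, 71.8 and 46.6 CPM in the triceps. Its groups did not overlap (-2.28 ± 0.23 SE, adjusted p = 3.6e-05), and the sham difference was 0.46. Of 22 immediate early genes 6 were higher and 4 lower, beside 41.9% and 11.1% of all genes, and 6 and 6 after centring. Fos and Atf3, factors induced within minutes of stress or activity, were -3.48 ± 0.63 (SE, adjusted p = 0.0011) and -3.1 ± 0.55 (SE, adjusted p = 9.9e-04). Sik1, named above, is in the same list and was its highest member, at 3.28.

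Of 24 antioxidant genes 16 were higher and 4 lower, beside 41.9% and 11.1% of all genes, with a median of 0.86 against 0.00 in sham. After centring 12 were higher and 6 lower, beside 21.6% and 24.2%. The difference from sham was called upward for 9 genes and downward for 1, beside 3.76% and 3.19% of all genes. Without the block these counts were 5 and 1, beside 240 and 207 of all 11249 genes. Gclm, of glutathione synthesis, differed by 1.23 ± 0.16 (SE, adjusted p = 1.4e-04), and Nqo1, a quinone reductase, by 1.34 ± 0.18 (SE, adjusted p = 2.0e-04). Pgd, of the pentose phosphate pathway, stood at 62.1, 60.03, 61.8 and 61.8 CPM against 10.4, 16.3, 12.9 and 16.5 CPM. All 4 gastrocnemius values were within a few CPM of each other and above the triceps (2.15 ± 0.29 SE, adjusted p = 2.1e-04). Of 25 genes of the unfolded protein response 19 were higher and 1 lower, but 9 and 3 after centring, beside the same shares of all genes. Xbp1, a transcription factor of that response, differed by 0.84 ± 0.13 (SE, adjusted p = 5.3e-04), and the 1 lower gene was Ddit3, a factor of its death arm (-1.35 ± 0.19 SE, adjusted p = 2.5e-04). Of 24 heat shock proteins 7 were higher and 7 lower, and 5 and 9 after centring. With length and GC trends removed 4 were higher and 11 lower, beside 22.7% and 21.9% of all genes. Hspa1b, a stress-induced chaperone named after its values were seen, differed by -2.26 ± 0.58 (SE, adjusted p = 0.0068). Hsp90ab1, a chaperone, differed by 1.58 ± 0.20 (SE, adjusted p = 1.2e-04) and Hspb8, a small heat shock protein, by 1.14 ± 0.18 (SE, adjusted p = 5.1e-04).

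Genes that build ribosomes stood higher in the gastrocnemius, whereas few ribosomal proteins were called. Of 29 ribosome biogenesis genes 27 were higher and none lower, beside 41.9% and 11.1% of all genes, with a median of 0.98 against 0.33 in sham. After centring 18 were higher and none lower, beside 21.6% and 24.2%. Ncl, nucleolin, and Bop1, a factor of the large subunit, differed by 1.35 ± 0.18 (SE, adjusted p = 2.1e-04) and 1.54 ± 0.16 (SE, adjusted p = 4.3e-05). Wdr43, of the small subunit, stood at 65.2 to 68.3 CPM against 29.5 to 34.2 CPM (1.05 ± 0.14 SE, adjusted p = 1.5e-04). Of 49 cytosolic ribosomal proteins 1 was higher and 2 lower, with a median of -0.22 after T9 and -0.89 in sham (-0.53 without sham mouse 4). After centring 1 was higher and 14 lower, beside 21.6% and 24.2% of all genes.

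The 1 ribosomal protein that was higher was Rpl3, at 252, 209, 194 and 249 CPM in the gastrocnemius and 88.1, 48.6, 47.03 and 96.1 CPM in the triceps. All 4 mice showed the same order without overlap (1.76 ± 0.25 SE, adjusted p = 2.4e-04), with a sham difference of -0.67 and a difference from sham of 2.43 ± 0.35 (SE, adjusted p = 0.0019). Rpl3l, the paralog that takes its place in adult striated muscle, was looked up for that reason after values were seen. It stood at 369, 341, 321 and 291 CPM in the gastrocnemius and 903, 704, 660.4 and 728 CPM in the triceps. The groups lay apart in the opposite direction (-1.18 ± 0.15 SE, adjusted p = 1.4e-04). The 2 genes have similar coding sequence, and how the authors' counting dealt with reads shared between them was not stated.

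Genes of oxidative metabolism were lower in the gastrocnemius. Of 52 nuclear-encoded genes of the respiratory chain, 50 were lower and none higher after T9, beside 11.1% and 41.9% of all genes. After centring all 52 were lower, and 48 to 49 were lower without any 1 T9 mouse. The median was -1.22 after T9 and -0.68 in sham (-0.39 without sham mouse 4). For 12 of them the difference fell from sham to T9, beside 3.19% of all genes. It fell for 32 without sham mouse 4 and for 6 without sham mice 4 and 5, beside 447 and 163 of all 11249 genes. Sdhd, an anchor of succinate dehydrogenase, stood at 159, 129.7, 120.4 and 139 CPM against 444, 319, 299 and 406 CPM. No overlap was seen between the groups (-1.41 ± 0.15 SE, adjusted p = 4.7e-05). Atp5g3, of ATP synthase, Cyc1, cytochrome c1, and Cox5a, of cytochrome oxidase, differed by -1.32, -1.26 and -1.09, against -0.44, -0.13 and -0.18 in sham.

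The genes of the mitochondrial genome moved with them: 13 of 15 were lower and none higher, beside 11.1% and 41.9% of all genes. Once length and GC trends were removed 8 of 15 were lower, beside 21.9% of all genes. mt-Co3, a subunit of cytochrome oxidase, differed by -1.36 ± 0.19 (SE, adjusted p = 2.4e-04) after T9 and -0.87 in sham. Of 24 genes of the TCA cycle and pyruvate entry 13 were lower and 2 higher, beside 11.1% and 41.9% of all genes. After centring 19 were lower and none higher, beside 24.2% and 21.6%. Mdh1, the cytosolic malate dehydrogenase, stood at 229, 214, 182 and 192 CPM against 908, 951, 785 and 1117 CPM. All triceps libraries were far above all gastrocnemius libraries (-2.2 ± 0.20 SE, adjusted p = 1.9e-05), and the sham difference was 0.00. Idh2, a mitochondrial isocitrate dehydrogenase, was -1.79 after T9 and 0.70 in sham, and the 2 differed (-2.48 ± 0.25 SE, adjusted p = 1.7e-04).

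Of 39 genes of fatty acid uptake and oxidation 17 were lower and 10 higher, beside 11.1% and 41.9% of all genes. After centring 25 were lower and 8 higher, beside 24.2% and 21.6%. Fabp3, the fatty acid carrier of oxidative fibres and heart, stood at 169, 102, 100.3 and 123 CPM in the gastrocnemius and 1486, 709, 769 and 1383 CPM in the triceps. The muscles did not overlap (-3.09 ± 0.30 SE, adjusted p = 3.2e-05), with -0.15 in sham. A processed copy listed as Fabp3-ps1 gave -3.15, and its reads may be shared with Fabp3. Lpl, the lipase that frees fatty acids from lipoproteins, stood at 204, 221, 172 and 161 CPM against 872, 729, 739 and 879.7 CPM. The triceps was higher in each mouse (-2.09 ± 0.14 SE, adjusted p = 2.8e-06), and sham mice differed by -0.31. Hadh, of β-oxidation, differed by -1.04 ± 0.12 (SE, adjusted p = 7.0e-05).

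Bdh1, the enzyme that interconverts ketone bodies, had one of the largest negative differences. It lies on chromosome 16, 31422280 to 31458901 and stood at 1.15, 2.03, 1.07 and 1.36 CPM in the gastrocnemius and 19.5, 55.9, 38.1 and 31.9 CPM in the triceps. Their ranges did not meet (-4.62 ± 0.32 SE, adjusted p = 2.8e-06). In sham mice the order was the reverse, at 36.8 ± 11.4 and 12.7 ± 7.25 CPM (SD, n = 4), and the difference changed by -6.33 ± 0.46 (SE, adjusted p = 1.7e-05). Oxct1, the next step of ketone use, was -1.18 after T9 and -0.02 in sham. Ldhb, the lactate dehydrogenase of oxidative fibres, stood at 46.7 to 64.7 CPM against 222 to 285 CPM (-2.14 ± 0.21 SE, adjusted p = 3.3e-05), and its sham difference was 0.59.

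Of 18 regulators of mitochondrial genes 8 were lower and 4 higher, beside 11.1% and 41.9% of all genes, with a median of -0.17. After centring 11 were lower and 1 higher, beside 24.2% and 21.6%. Ppargc1a, the coactivator PGC-1α, stood at 16.02, 14.8, 17.3 and 14.5 CPM in the gastrocnemius and 120.01, 77.2, 147 and 85.3 CPM in the triceps. All 4 mice showed the same order without overlap (-2.73 ± 0.19 SE, adjusted p = 2.8e-06). In sham mice it stood at 40.6 ± 18.9 and 31.4 ± 14.9 CPM (SD, n = 4), so that the T9 triceps lay above both sham means and the T9 gastrocnemius below them. Perm1, a muscle protein induced by PGC-1α, stood at 21.5, 24.5, 12.8 and 11.2 CPM against 174, 281, 283 and 200.3 CPM. It differed by -3.79 ± 0.28 (SE, adjusted p = 3.5e-06) after T9 and 0.82 in sham, a change of -4.6 ± 0.39 (SE, adjusted p = 5.5e-05). Esrra, the receptor ERRα that works with PGC-1α, was -1.17 after T9 and 0.16 in sham. Sirt3, a mitochondrial deacetylase, was -1.28.

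The promoter window of Perm1 is shown for a match to AAGGTCA, the letters of the site that ERRα is known to bind. It lies at chr4:156215677-156215976 on the plus strand (RefSeq, GRCm38.p6), and capitals mark the match, which is on the opposite strand.
Perm1: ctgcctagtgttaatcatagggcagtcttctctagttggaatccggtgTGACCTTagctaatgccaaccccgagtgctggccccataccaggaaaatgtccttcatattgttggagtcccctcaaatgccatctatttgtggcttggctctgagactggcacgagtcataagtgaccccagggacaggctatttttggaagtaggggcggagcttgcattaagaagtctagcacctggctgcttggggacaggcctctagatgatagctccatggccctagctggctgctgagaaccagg
Among all windows 4.72% hold AAGGTCA on either strand, and 2 of 40 windows of respiratory chain genes do, a share like that of all promoters.

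**Figure D4:**
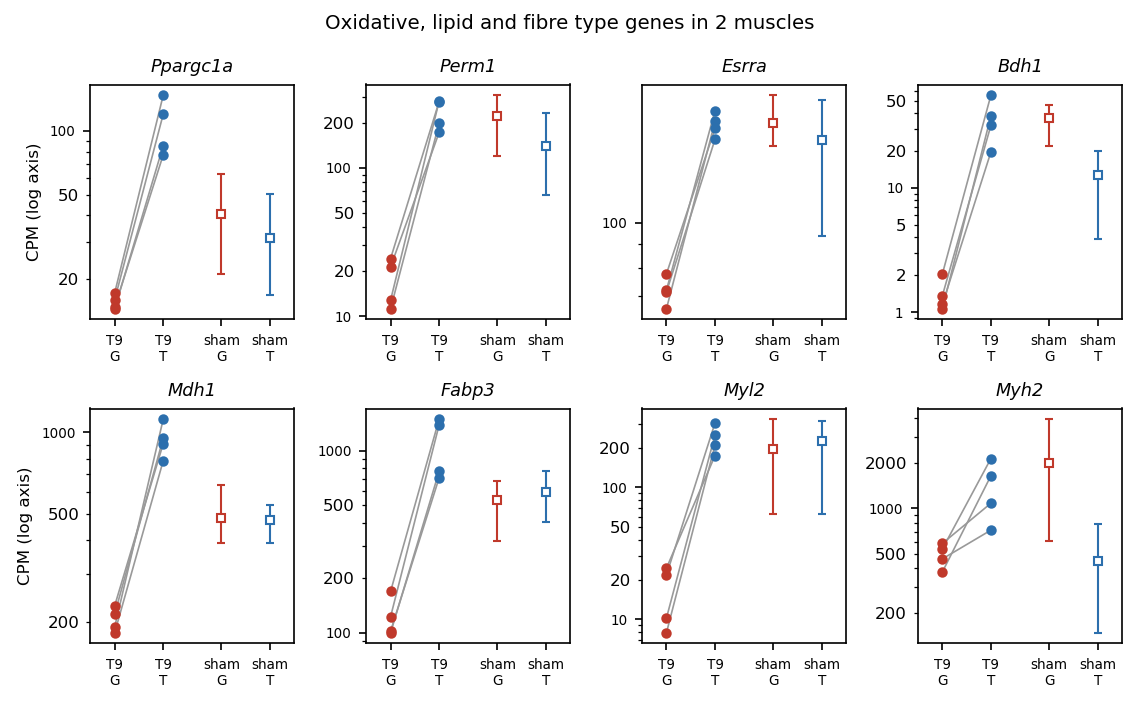
CPM (log axis) of 8 genes in the gastrocnemius (G, red) and triceps (T, blue). Filled points are the 4 T9 mice with lines joining the muscles of a mouse, and open squares are sham means with bars from the lowest to the highest of 4 mice. The T9 gastrocnemius lies below the T9 triceps for all 8 genes, and for Ppargc1a, Perm1, Bdh1 and Myh2 the sham means have the opposite order.

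Genes of slow fibres were lower in the gastrocnemius, 10 of 15 with 1 higher, beside 11.1% and 41.9% of all genes. Their median was -1.55 after T9 and -0.27 in sham (-0.46 without sham mouse 4). Myl2, the slow myosin regulatory light chain, stood at 21.7, 24.5, 7.92 and 10.2 CPM against 308, 174, 209.7 and 249.98 CPM. All triceps libraries were far above all gastrocnemius libraries (-4.0 ± 0.32 SE, adjusted p = 5.0e-06). In sham mice it was at 196 ± 111 and 225 ± 113 CPM (SD, n = 4). Tnni1 and Tnnc1, slow troponins, were -2.68 and -2.69, with -1.31 and -1.48 in sham. Csrp3 and Casq2, a Z-disc protein and a calcium store protein, were -2.49 and -2.02. Myh7, the slow myosin heavy chain itself, was not called, at 57.01 to 201 CPM and 57.8 to 188 CPM (-0.08 ± 0.74 SE, adjusted p = 0.93). Atp2a2, the slow calcium pump, was not called either (0.27 ± 0.42 SE, adjusted p = 0.6). The 1 higher gene was Sln, a small inhibitor of the calcium pump (2.33 ± 0.46 SE, adjusted p = 0.0017).

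Of 22 genes of fast fibres 7 were higher and 6 lower, beside 41.9% and 11.1% of all genes. After centring 3 were higher and 8 lower, beside 21.6% and 24.2%. Myh2, the myosin of fast oxidative IIA fibres, stood at 461, 536, 377 and 584 CPM in the gastrocnemius and 716, 2145, 1648 and 1082 CPM in the triceps. The groups did not overlap (-1.41 ± 0.40 SE, adjusted p = 0.011), with an adjusted p of 0.055 without mouse 3. In sham mice the gastrocnemius was the higher muscle, at 2011 ± 1441 and 447 ± 318 CPM (SD, n = 4), and the difference changed by -3.61 ± 0.57 (SE, adjusted p = 0.0032). Myh4, the myosin of fast glycolytic IIB fibres, was 1.6 higher after T9 and 1.56 in sham. Myh1, of IIX fibres, was not called (0.57 ± 0.32 SE, adjusted p = 0.15). Of 34 genes of glycolysis and glycogen 10 were higher and 10 lower, and 7 and 17 after centring. With length and GC trends removed 8 were higher and 17 lower, beside 22.7% and 21.9% of all genes. The median of this list was 0.03 after T9 and 0.60 in sham. For 10 of these genes the difference fell from sham to T9 and for 1 it rose, beside 3.19% and 3.76% of all genes. After centring it fell for 15, beside 560 of all 11249 genes.

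Of 21 channels and sodium pump genes 10 were higher and 7 lower, 6 and 9 after centring, and 4 and 10 with length and GC trends removed. The shares of all genes in the same fits were 41.9% and 11.1%, 21.6% and 24.2%, and 22.7% and 21.9%. The median of the list was 0.65, 0.24 after centring and -0.28 with those trends removed. Atp1b4, a muscle relative of the pump's β subunits that sits in the nuclear envelope in placental mammals, stood at 0.668, 0.961, 0.964 and 0.986 CPM against 4.28, 5.7, 9.28 and 7.08 CPM. No overlap was seen between the groups (-2.8 ± 0.36 SE, adjusted p = 1.5e-04). Lrrc52, an auxiliary subunit of potassium channels (chromosome 1, 167445669 to 167466780), had 3 reads over the 4 gastrocnemius libraries and 231 over those of the triceps, 0.0607, 0, 0.102 and 0 CPM against 2.31, 4.16, 4.6 and 3.6 CPM. Per read sequenced the triceps held 85.5 times as many (95% interval 28.9 to 418, counting error only). The limma difference was -6.01, which depends on the offset of 0.5 reads at such counts. In sham mice Lrrc52 stood at 2.5 ± 1.12 and 0.736 ± 0.64 CPM (SD, n = 4), with the gastrocnemius higher.

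Of the signals that set muscle mass, 17 of 29 genes of IGF, insulin and mTORC1 signalling were higher and 1 lower (12 and 3 after centring). The shares of all genes were 41.9% and 11.1%, and 21.6% and 24.2% after centring. With length and GC trends removed 9 of the list were higher and 5 lower, beside 22.7% and 21.9% of all genes. Eif4ebp1, the repressor of translation that mTORC1 acts on, differed by 0.97 ± 0.10 (SE, adjusted p = 4.5e-05) after T9 and -0.34 in sham. Fst, follistatin, the secreted inhibitor of myostatin, stood at 12.7, 9.45, 6.65 and 7.52 CPM against 2.6, 2.43, 2.01 and 2.49 CPM. The muscles did not overlap (1.88 ± 0.26 SE, adjusted p = 2.2e-04), with -0.92 in sham. Odc1, the first enzyme of polyamine synthesis and a target of androgens in muscle, stood at 343, 376, 509 and 431 CPM against 154, 153, 160.2 and 173 CPM. The gastrocnemius was higher in each mouse (1.36 ± 0.17 SE, adjusted p = 1.3e-04), while the difference was -0.05 in sham and -0.01 after T3. The test of the T9 difference against the T3 difference did not call Odc1.

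The test of the T9 difference against the T3 difference called 5 genes (0.0444%), all lower after T9. Without the block limma called 0, with 511 genes at an unadjusted p under 0.05, and with library quality weights 922. Among the 5 were Gadd45b, Fbp2, Ntf5 and Gm49794, a predicted gene. Ntf5, the nerve growth factor NT-4/5 whose level in muscle follows activity, stood at 1.4, 1.44, 1.27 and 0.74 CPM in the gastrocnemius and 7.12, 7.74, 6.62 and 5.51 CPM in the triceps. Their ranges did not meet (-2.48 ± 0.18 SE, adjusted p = 3.5e-06), and the difference was -0.78 after T3 and -0.21 in sham. Fbp2, the muscle fructose bisphosphatase, and Gadd45b were -1.36 and -1.59 after T9 and 0.43 and 0.48 after T3. None of the 5 calls stood without T9 mouse 3 or without T3 mouse 2.

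Transcript length moved with the difference between muscles in every group. With genes in 5 equal groups by length, the median T9 difference was -0.02 in the shortest, and it rose through 0.16, 0.41 and 0.57 to 0.75 in the longest. Sham and T3 differences rose likewise, and the T9 minus sham difference did not, with 0.19 in the shortest and 0.15 in the longest. With the length and GC trend of each library removed, 2553 genes were higher and 2459 lower after T9. Respiratory chain genes then had 50 lower calls and denervation genes 15 higher and 4 lower. Of the T9 calls that could be compared, 3623 of 5955 were called in the same direction with the trends removed, and 14 were called in the other.

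**Figure D5:**
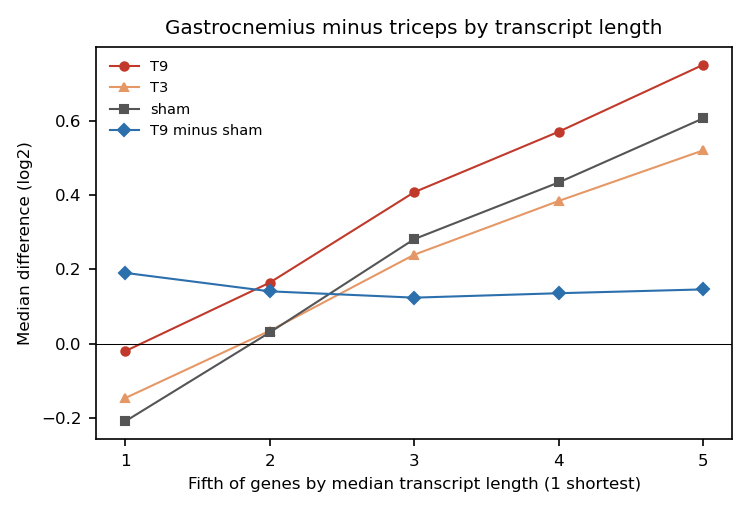
Median gastrocnemius minus triceps difference (log2) in 5 equal groups of genes ordered by median transcript length, for T9, T3 and sham mice and for the T9 minus sham difference. The first 3 lines rise from the shortest to the longest transcripts, and the T9 minus sham line runs between 0.12 and 0.19.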

How the data were processed

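Poly(A) RNA of whole muscle was sequenced on a stranded, paired-end protocol, per the labels' protocols. The deposited mRNA table holds log2 values per gene made by the authors, who used the genome build GRCm38 with HISAT2 2.1.0, Subread 1.5.1, featureCounts and limma, per the submitters' processing notes. Each value equals log2 of (reads + 0.5) per 1000000 of (library total + 1). Whole reads were recovered for 100% of values within 0.01 reads, and CPM here is computed from them. No row without a gene enters the totals.

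The deposited values were fitted with limma 3.58.1 in R 4.3.3 with a variance trend, on 24 libraries of 12 mice with mouse as a block and 9 residual degrees of freedom. Adjusted p-values are Benjamini-Hochberg over 11249 genes, with a threshold of 0.05. A minimum log2 value of 0 in 4 or more libraries removed no gene. No count model was used, since the deposited unit is log2 and not counts. The 24 libraries hold 13.3 to 23.4 M reads (M, 1000000). Intervals cover counting error only.

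Mouse numbers come from the sample descriptions, and that equal numbers mean one mouse is an inference. Deviations from the group mean of same-numbered libraries correlated at 0.195 to 0.479 in the 4 T9 mice and above 0.1 in 10 of all 12. The labels do not say whether the mice were littermates or processed on one day. The limma p-values rest on the scatter of within-mouse muscle differences, pooled over the 12 sham, T3 and T9 mice. No 2 libraries of a T9 group agreed within sampling noise (chi-square per degree of freedom 9.78 to 310.1).

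The comparison and the gene lists were chosen with earlier results of these data known. Genes were named by rule: the 12 largest differences per direction past the threshold, with the same direction in 4 of 4 mice, a mean of 1 or more on the log2 scale where they were higher, and no predicted gene. Added to these were up to 4 members per list with the smallest adjusted p, all limb identity, synaptic, denervation and fibre-type genes, the 8 and 4 largest per direction called against sham and T3, and Fbxo32 and Trim63. Other scalings, filters, weights, the fit without the block, each mouse left out and removal of length and GC trends were tried. The trend removal, settings that join centring to another change, and the 2-fold rule were added after seeing the data. On simulated data for 11249 genes, 98 of 100 genes changed by 1 on the log2 scale were called, all 100 changed by 2, and 6.60% of calls were unchanged genes. That simulation changed few genes, gave every gene the same fixed spread and held no shift of the median gene between muscles. In the real data 53% of genes were called and the median gene shifted, so these rates do not carry over. Sequences are from RefSeq (GRCm38.p6).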

Additional observations from a re-analysis of the deposited data

Results flagged for a closer look

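In 4 of 109 tested differences, 1 mouse lay far from the other 3 by Dixon's 95% limit for 4 values, which chance passes in about 1 of 20 tests. The within-mouse difference was 4.17 for Nfkb2 and 3.33 for Relb in T9 mouse 1, both above the rest. It was 1.76 for Ncl in T9 mouse 1 and -2.85 for Ntf5 in T9 mouse 4.

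The muscle difference after T9 differed from that in sham mice for 782 genes and from that after T3 for 5 genes, by interaction terms in limma. Changes from sham toward the gastrocnemius were 4.55 for Aif1l, 3.85 for Chrnd, 3.79 for Gadd45a, 3.75 for Myog, 3.7 for Cdkn1a, 3.65 for Eda2r, 3.44 for Myl4 and 3.21 for Lpin2. Of these the calls of Myog, Chrnd and Aif1l were lost when 1 mouse was left out: for Myog T9 mouse 1, 2 or 3 or sham mouse 5, for Chrnd T9 mouse 3 or sham mouse 5, and for Aif1l T9 mouse 3. Changes toward the triceps were -7.94 for Lrrc52, -6.33 for Bdh1, -4.6 for Perm1, -4.0 for Dok5, -3.8 for Myl2, -3.61 for Myh2, -3.1 for Ppargc1a and -3.01 for Fabp3-ps1. Against T3 the changes were -2.07 for Gadd45b, -1.79 for Fbp2 and -1.7 for Ntf5, and none of these was called without the block.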

How the results depend on the processing

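Counts of genes higher and lower after T9 (4713 and 1246) turned on the scaling: 2432 and 2722 after median centring, 2833 and 2616 after quantile normalization, 2531 and 2622 with median-of-ratios scaling, and 2553 and 2459 with length and GC trends removed (3099 and 2943 in T9 mice alone). Counts without 1 T9, T3 or sham mouse ranged from 2654 to 5600 higher and from 838 to 1564 lower. After centring they were 1389, 2166, 2002 and 1408 higher and 1524, 2463, 2259 and 1653 lower without T9 mouse 1, 2, 3 and 4. Centred counts were 3000 and 3382 without sham mice 4 and 5, 1850 and 2068 without the block, and 2913 and 3290 in T9 mice alone.

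The mouse block decided several counts. Without the replicate block 4243 genes were higher and 940 lower after T9, 447 differed between T9 and sham (467 centred), 0 between T9 and T3 (0 centred), 95 in sham (98 centred) and 2136 after T3 (2146 centred). Without sham mouse 4, 1488 genes differed between T9 and sham, 15 between T9 and T3, 96 in sham and 5545 after T3. Without sham mice 4 and 5 these counts were 430, 17, 6 and 5660, and after centring 487, 51, 15 and 5429. Leaving out 1 mouse gave 353 to 1488 genes for T9 against sham (498 to 696 centred, for T9 mice only), 0 to 15 for T9 against T3 (3 to 11 centred, for T9 mice only), 96 to 4650 in sham and 592 to 5545 after T3.

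For T9 against sham (782), all 30 libraries with mouse as a random effect gave 1287, quality weights 2659 and trend removal 1633. For T9 against T3 (5) the same 3 gave 97, 922 and 50, centring 19, quantile normalization 24, median-of-ratios scaling 22, and a pseudocount of 1 CPM and voom weights 3 each. Trend removal gave 2673 in sham, quality weights 6243 after T3, and T3 with T9 mice alone 5302. Of the T9 calls, 14 were called in the other direction with trends removed, 45 in T9 mice alone. The collagen and matrix genes turned from 5 higher to 5 lower. No gene named here turned while called. Of the values of named genes and list medians under alternatives, 4437 stayed on their side of the threshold or within the spread, 93 fell below the threshold, 33 passed it and 77 list medians moved. The causes were not tested.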

Other observations

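Axon guidance genes, which steer growing nerve fibres, were higher in the gastrocnemius for 11 of 20 in the table and lower for none after T9 (9 and 2 after centring), with a median of 1.02 and 0.91 in sham. The shares of all genes were 41.9% and 11.1%, and 21.6% and 24.2% after centring. Circadian clock genes were 12 higher and 1 lower of 21 (6 and 4 after centring), at medians of 0.59 and 0.58. Interferon, MHC class I and immunoproteasome genes were 12 higher and 2 lower of 28 (6 and 2 after centring), with higher calls near the shares of all genes. Collagen and matrix genes were 5 higher and none lower of 29, but none higher and 5 lower once length and GC trends were removed. With those trends removed 22.7% of all genes were higher and 21.9% lower.

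Some genes with large differences are named here only after their values were seen. Relb, the partner of Nfkb2 in NF-κB, stood at 26.9 to 35.01 CPM in the gastrocnemius and 2.66 to 8.12 CPM in the triceps (2.48 ± 0.31 SE, adjusted p = 1.3e-04 by limma). G0s2, an inhibitor of the fat lipase ATGL, was -2.74 ± 0.45 (SE, adjusted p = 6.5e-04), with 0.08 in sham. Ramp1, a part of the receptor for CGRP, was -2.75 ± 0.23 (SE, adjusted p = 8.0e-06), with -1.28 in sham. Tfrc, the transferrin receptor, was -1.99 ± 0.26 (SE, adjusted p = 1.7e-04), and Vegfa, a growth factor of capillaries, -1.29 ± 0.22 (SE, adjusted p = 8.4e-04).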
